A study of Mus musculus with 9 samples.

Results

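The genes described here are 9 inhibitors of T cell receptor (TCR) signalling, taken from a list of gene names. They are the surface receptors Cd5 and Cd6, the phosphatase-family genes Ubash3a, Ubash3b, Ptpn6 and Ptpn22, the kinase Csk, and the adaptors Pag1 and Sh2d2a. All 9 of 9 were among the 24594 genes of the table, and all 9 passed a filter on low values that kept 11569 genes. RNA was sequenced in bulk from 9 libraries of OT-II thymocytes, whose transgenic TCR recognizes a peptide of ovalbumin, to ask how meeting antigen and losing Nr4a genes alter the transcripts of developing CD4 cells.

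The cells came from mixed bone marrow chimeras 4.7 weeks after reconstitution. Each irradiated host had received OT-II marrow that was Nr4a1+/+ Nr4a3+/+ (OT-II), OT-II marrow labelled Nr4a1-/- Nr4a3-/- (double knockout, DKO) and non-transgenic wild-type marrow at the same time, so that every OT-II cell developed beside competitors. WT hosts expressed no ovalbumin. The labels give them as BoyJ mice, whereas the study's methods describe both kinds of host as F1 mice, so by the labels host strain and antigen cannot be told apart. RIPmOVA hosts, F1 mice of BoyJ and the C57BL/6 transgenic line Tg(Ins2-TFRC/OVA)296Wehi/WehiJ, expressed membrane-bound ovalbumin from the rat insulin promoter, which is active in the thymic medulla as well as the pancreas. The sorted cells were CD4+ CD8- CD69+ and carried the Vα2 and Vβ5 chains of the OT-II receptor. OT-II libraries numbered 2 from WT hosts and 2 from RIPmOVA hosts, and DKO libraries 3 from WT hosts and 2 from RIPmOVA hosts. Groups are written below as genotype and host (OT-II/WT, DKO-labelled/WT, OT-II/RIP and DKO-labelled/RIP). Each replicate number is a separate host mouse, and the OT-II and DKO libraries that share a number and a host came from the same mouse. The DKO donors were C57BL/6 and the OT-II donors an F1 of B6.Cg-Tg(TcraTcrb)425Cbn/J and BoyJ, so genotype and donor background cannot be told apart.

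TCR ligation lets the Src-family kinase LCK phosphorylate the CD3 and zeta chains, to which ZAP-70 binds. The 9 genes act close to that step. CSK, brought to the membrane by the adaptor PAG1, phosphorylates the inhibitory tyrosine of LCK, while PTPN22, PTPN6 and UBASH3B take phosphate from activated kinases. CD5 and CD6 are scavenger-receptor family proteins of the T cell surface, and surface CD5 is widely used as a measure of how strongly a thymocyte has perceived self-ligand.

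The targeted genes were examined first. Nr4a1 was 60.7 and 86.1 RPKM (reads per kilobase of exon, scaled to the exonic reads of the library) in OT-II/WT and 60.1, 80.2 and 87.7 RPKM in DKO-labelled/WT libraries. Nr4a1 was 260.0 and 229 RPKM in OT-II/RIP and 282 and 235 RPKM in DKO-labelled/RIP. Nr4a3 was 0.181 and 0.189 RPKM in OT-II/WT, 0.294, 0.665 and 0.188 RPKM in DKO-labelled/WT, 5.66 and 3.72 RPKM in OT-II/RIP, and 16.5 and 14.1 RPKM in DKO-labelled/RIP. Neither gene was lower under the DKO label. A value summed over all exons of a gene does not show whether a functional part is deleted, so these libraries are called DKO-labelled throughout. Gadd45b, an early target of antigen receptor signalling, was 1.43 to 2.1 RPKM in the 5 libraries from WT hosts and 35.4 to 52.7 RPKM in the 4 from RIPmOVA hosts, of either genotype.

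Libraries held 15520000 to 25030000 exonic reads, and replicates of a group correlated with r of 0.959 to 0.986 across genes. All 6 markers of CD4 single-positive cells were above 1 RPKM in all 9 libraries, with summed levels of 1170 to 1430 RPKM. The 5 markers of double-positive cells summed to 58.3 to 98.7 RPKM in cells sorted as CD8-, most of it Cd8b1 (54.5 to 96.4 RPKM). Cd8a was 1.76 to 7.6 RPKM, Rag1 0.119 to 2.94 RPKM, Ptcra 0.0 to 2.5 RPKM and Rag2 0.041 to 0.849 RPKM. The 4 regulatory T cell markers summed to 4.9 to 16.6 RPKM in WT hosts and 30.9 to 45.4 RPKM in RIPmOVA hosts. Foxp3 was 1.9 to 3.31 RPKM in OT-II/RIP, the group highest in Cd5, Cd6 and Sh2d2a, and 0.491 RPKM or less in the others. Il2ra (12.3 to 13.6 RPKM) and Ikzf4 (6.77 to 8.07 RPKM) were also highest in OT-II/RIP. Ctla4 went the other way, at 22.1 to 23.2 RPKM in DKO-labelled/RIP, most of the sum there, against 11.7 to 20.4 RPKM in OT-II/RIP. The 6 myeloid markers summed to 11.4 to 21.4 RPKM in OT-II/RIP libraries, against 3.07 to 10.6 RPKM in the other groups. Lyz2, at 0.879 to 18.7 RPKM, made up most of the highest sums, Itgam and Cd68 reached 1.7 and 1.49 RPKM, and Csf1r, Adgre1 and Itgax stayed under 1 RPKM. The 5 B cell markers summed to 2.72 to 10.5 RPKM over the 9 libraries and the 5 epithelial markers to 2.68 to 11.7 RPKM. Cd79a (2.31 to 6.33 RPKM) and Epcam (2.24 to 10.2 RPKM) were above 1 RPKM in all 9 libraries, and Epcam had its highest value in DKO-labelled/RIP, while Pax5 and Krt5 were at 0.166 RPKM or less. Hba-a1, a haemoglobin gene of red cells, reached 13.9 RPKM in OT-II/WT and 13.0 RPKM in DKO-labelled/WT, was at 1 RPKM or more in 3 of the 5 libraries from WT hosts, and was at 0.325 RPKM or less in RIPmOVA hosts, with Alas2 at 0.412 RPKM or less throughout. Reads on 1455 sensory receptor genes, which T cells are not known to use, served as a measure of background. These genes drew 512.3 and 1133.1 RPM (reads scaled to library size) in OT-II/WT and 413.1 to 1042.3 RPM in DKO-labelled/WT. They drew 292.5 and 551.8 RPM in OT-II/RIP and 1040.6 and 1481.3 RPM in DKO-labelled/RIP libraries. Their mean RPKM, used as the covariate on the log2 scale, was highest in DKO-labelled/RIP, at 0.324 and 0.434. It was 0.11, 0.301 and 0.0762 in DKO-labelled/WT, 0.294 and 0.089 in OT-II/WT, and 0.138 and 0.0502 in OT-II/RIP. Background thus moved with genotype in RIPmOVA hosts and with host in DKO-labelled cells. The part of these markers and of this background in the results below was not tested, apart from a fit with the background as a covariate.

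The inhibitors spanned a wide range of levels, given per exon length as RPKM. Ptpn6 and Cd6 had the highest mean over the 9 libraries, each at percentile 98.8 of the genes kept, followed by Cd5 at 98.5, Sh2d2a at 94.8, Ptpn22 at 92.9, Csk at 90.0 and Ubash3a at 88.7. Ubash3b and Pag1 lay near the middle of all genes, at percentiles 48.9 and 42.4. In OT-II/WT libraries the order was Cd6, Ptpn6, Cd5, Sh2d2a, Ptpn22, Csk, Ubash3a, Ubash3b and Pag1. Neighbours in that order whose libraries overlapped were Cd6 and Ptpn6, Ptpn22 and Csk, Csk and Ubash3a, and Ubash3b and Pag1. In DKO-labelled/WT libraries Ptpn6 came first, apart from Cd6 and Cd5. In OT-II/RIP libraries Cd6 and Cd5 overlapped at the top, both above Ptpn6. In DKO-labelled/RIP libraries Ptpn6 overlapped Cd6, which overlapped Cd5, and Ptpn22 stood above Sh2d2a, although the libraries of these 2 genes overlapped. The values rested on 567 reads, for Ubash3b, to 26703 reads, for Cd6, in a library. The order between genes depends on the gene models, since the exon length in the table differed from that of a later annotation, as for Ptpn6 (5006 and 2802 bases) and Csk (6495 and 3737 bases).

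**Figure D1:**
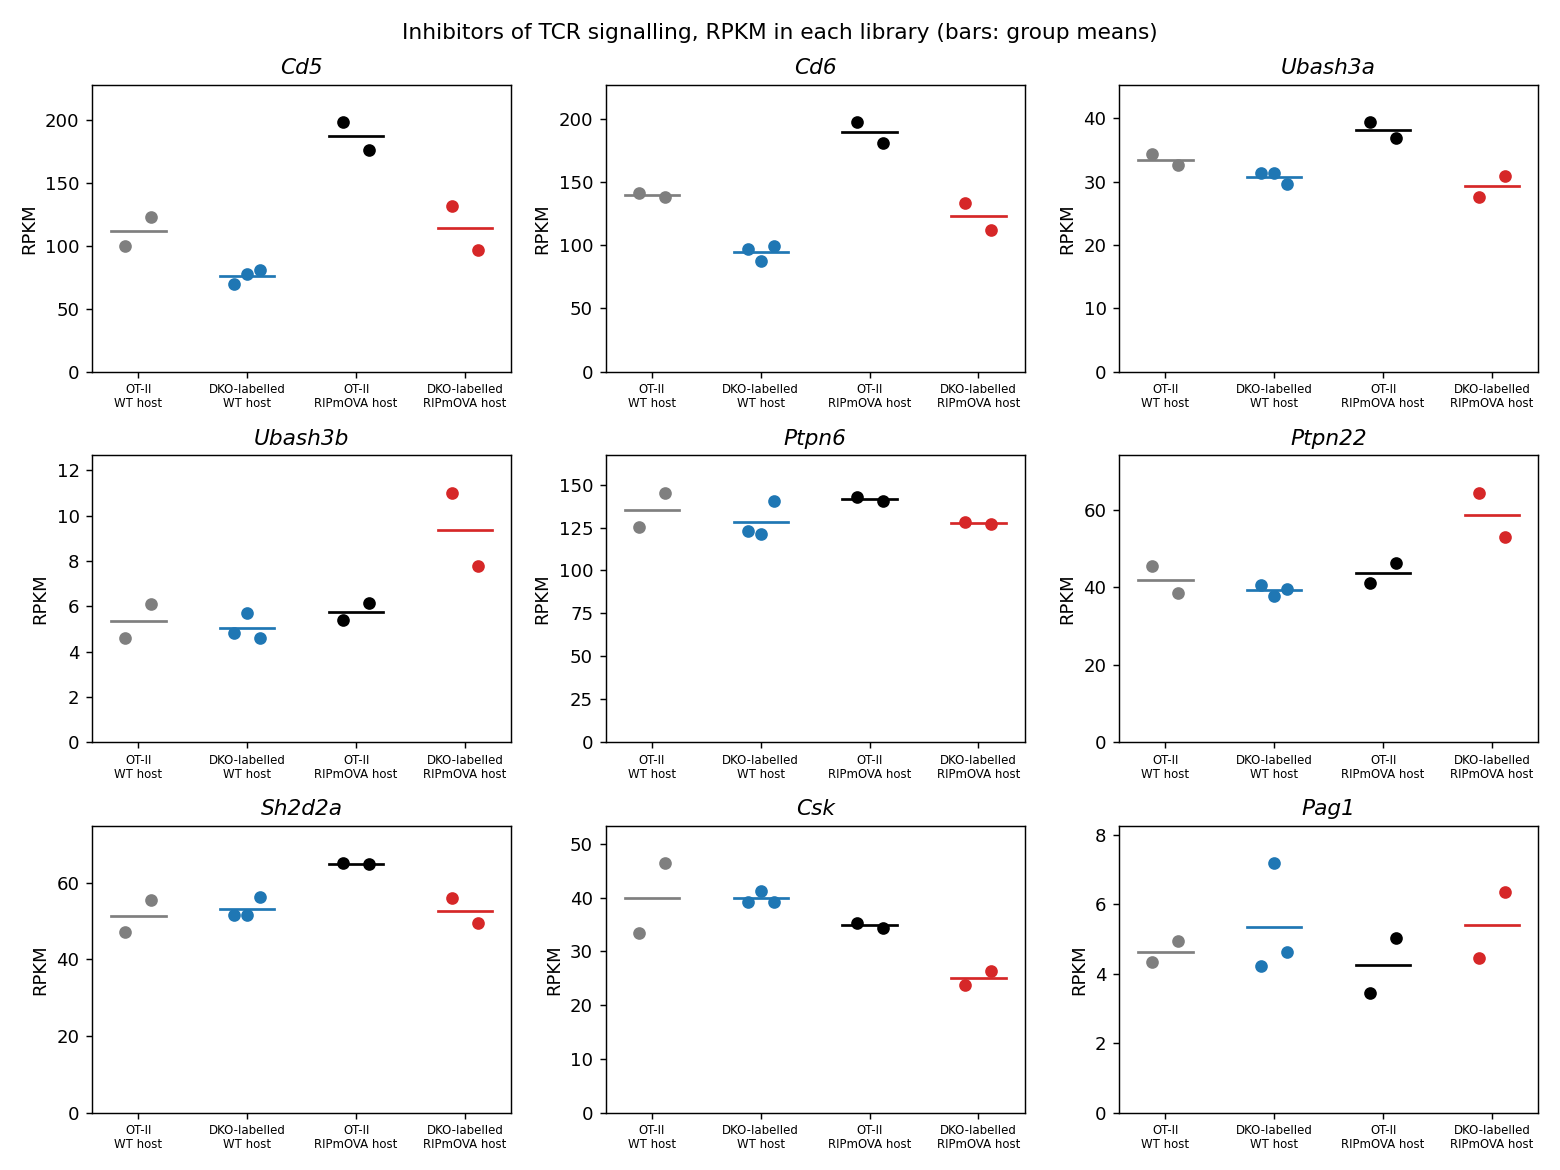
RPKM of the 9 inhibitors in each library, with a panel for each gene, a point for each library and a horizontal bar at the group mean. Cd5 and Cd6 are highest in OT-II/RIP libraries, at 176 to 198 and 181 to 197 RPKM, and Ubash3b, Ptpn22 and Csk stand apart in DKO-labelled/RIP libraries.

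Differences were tested with limma on log2(RPKM + 0.5), with p-values adjusted by the Benjamini-Hochberg method over all 11569 genes. Calling a gene took both a log2 fold change of 1 or more in size and an adjusted p no greater than 0.05. By this rule 0 of the 9 inhibitors were called in any of the 5 comparisons. Of all genes tested, 1.23% were called between RIPmOVA and WT hosts in OT-II libraries, 1.68% in DKO-labelled libraries, 1.07% between genotypes in RIPmOVA hosts, 0.0605% between genotypes in WT hosts and 0.0173% for the interaction of host and genotype. At the adjusted p alone, 3 inhibitors passed between hosts in DKO-labelled libraries (3.35% of all genes) and 1 passed between genotypes in RIPmOVA hosts (2.21% of all genes). In the other 3 comparisons 0 passed, where 1.89%, 0.0692% and 0.0173% of all genes did. At an unadjusted p under 0.05, limma gave 3 of 9 inhibitors between hosts in OT-II libraries (14.3% of all genes), 5 between hosts in DKO-labelled libraries (17.6%), 7 between genotypes in RIPmOVA hosts (21.4%), 2 between genotypes in WT hosts (7.89%) and 4 for the interaction (9.32%). A fit with limma voom on reads recovered from the RPKM values also called 0 inhibitors in each comparison.

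**Figure D2:**
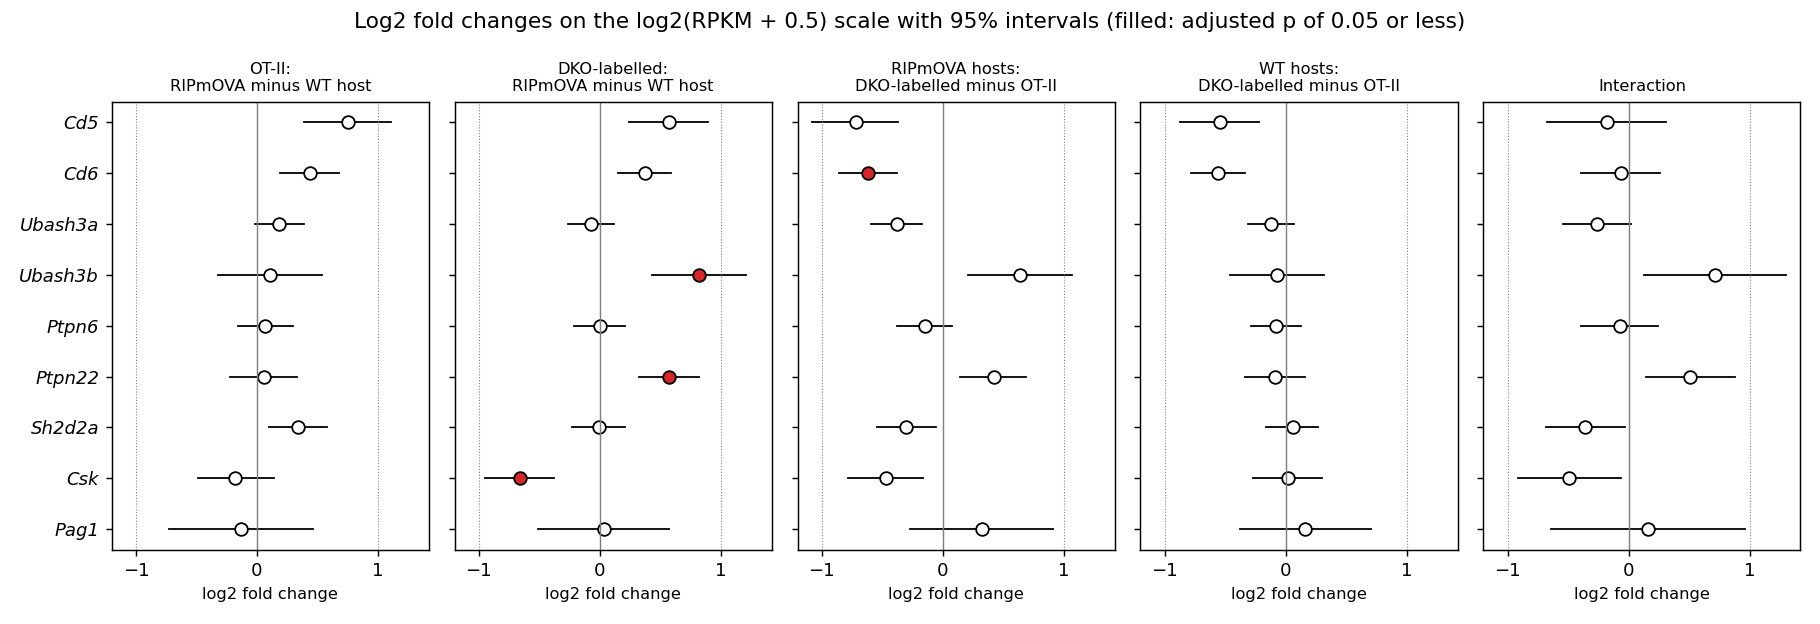
Log2 fold changes of the 9 inhibitors (points) on the log2(RPKM + 0.5) scale with 95% intervals (lines) in the 5 comparisons, filled where the adjusted p was 0.05 or less and with dotted lines at -1 and 1. Filled points are Cd6 between genotypes in RIPmOVA hosts (-0.62), and Ubash3b (0.82), Ptpn22 (0.57) and Csk (-0.66) between hosts in DKO-labelled libraries.

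Cd5 and Cd6, the surface receptors of the group, shared a pattern. Both were highest in OT-II cells from antigen-expressing hosts and lowest in DKO-labelled/WT cells. Cd5 (Entrez 12507, chr19:10717116-10739002, GRCm38, minus strand) was 99.9 and 123 RPKM in OT-II/WT and 69.5, 77.6 and 80.8 RPKM in DKO-labelled/WT. Cd5 was 198 and 176 RPKM in OT-II/RIP and 131 and 96.4 RPKM in DKO-labelled/RIP. The OT-II libraries were above the DKO-labelled ones in either host without overlap, and DKO-labelled/RIP libraries reached the range of OT-II/WT libraries. In bulk RNA, fewer cells with a transcript and less of it in each cell cannot be told apart, here and for every gene below.

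The difference of Cd5 between hosts was 0.75 on the log2 scale in OT-II libraries (SE 0.16, 95% interval 0.39 to 1.11, 1.68-fold), with an adjusted p of 0.0536 by limma. In DKO-labelled libraries it was 0.57 (SE 0.15, interval 0.24 to 0.89, adjusted p = 0.0768 by limma). Neither passed the limit of 0.05. Between genotypes, Cd5 differed by -0.72 in RIPmOVA hosts (SE 0.16, interval -1.08 to -0.37, adjusted p = 0.0541) and by -0.54 in WT hosts (SE 0.15, interval -0.87 to -0.22, adjusted p = 0.309), the first 1.65-fold and the second 1.46-fold lower under the DKO label. With host mouse as a block the adjusted p was 0.0489 between hosts in OT-II libraries and 0.0336 between genotypes in RIPmOVA hosts. It was 0.0444 and 0.0393 with voom, and 0.0394 and 0.04 with a filter at 5 RPKM. With replicate number as a block it was 0.126 and 0.109, and with the background covariate 0.152 and 0.468. Of 13 other settings, 3 met the limit in the first of these comparisons and 7 in the second. Without DKO-labelled/WT replicate 1, 2 or 3 the adjusted p by limma was 0.0712, 0.0882 and 0.0935 in the first and 0.0748, 0.0688 and 0.0866 in the second. Those libraries are in neither comparison, so these values do not show how Cd5 fares without a library that was compared. Leaving out a compared library left 1 in its group. The log2 fold change between hosts was then 0.66 or 0.83 without OT-II/RIP replicate 1 or 2, and 0.6 or 0.9 without OT-II/WT replicate 1 or 2. Between genotypes it was -0.64 or -0.81 without OT-II/RIP replicate 1 or 2, and -0.95 or -0.5 without DKO-labelled/RIP replicate 1 or 2. The interaction was -0.18 (interval -0.67 to 0.31, adjusted p = 0.783), so a different host response of Cd5 in the 2 genotypes was not shown, and the interval includes a difference of that kind in either direction.

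Cd6 (Entrez 12511, chr19:10789341-10830058, minus strand), which binds the adhesion molecule ALCAM, lies next to Cd5 on the chromosome, 50338 bases apart with 0 protein-coding genes between them. Cd6 was 141 and 138 RPKM in OT-II/WT and 96.9, 87.9 and 99.7 RPKM in DKO-labelled/WT. It was 197 and 181 RPKM in OT-II/RIP and 134 and 112 RPKM in DKO-labelled/RIP. The DKO-labelled libraries from either host were thus all below every OT-II library.

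Cd6 was lower under the DKO label in RIPmOVA hosts by -0.62 on the log2 scale (SE 0.11, interval -0.86 to -0.38, 1.54-fold), with an adjusted p of 0.0224 by limma, the only inhibitor to pass between genotypes. The adjusted p was over 0.05 without OT-II/RIP replicate 1 or 2 or DKO-labelled/RIP replicate 2 (0.167, 0.0952 and 0.111), and it was 0.299 with the background covariate, at a log2 fold change of -0.56. In WT hosts the difference was nearly as large, -0.56 (SE 0.1, interval -0.78 to -0.34), with an adjusted p of 0.099. Between hosts Cd6 differed by 0.44 for OT-II (SE 0.11, adjusted p = 0.0868) and by 0.37 for DKO-labelled cells (SE 0.1, adjusted p = 0.0837). The interaction of Cd6 was -0.06 (interval -0.39 to 0.26). That test did not show the genotype difference of Cd6 to depend on the host, and its interval covers values in either direction.

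Across the 9 libraries, log2(RPKM + 0.5) of Cd5 and Cd6 correlated with r of 0.95, a description over libraries that share hosts and groups. The ratio of Cd5 to Cd6 was 0.706 to 0.89 in the 5 libraries from WT hosts. In OT-II/RIP it was 1.0 and 0.968, and in DKO-labelled/RIP 0.983 and 0.858. Cd5 thus had the larger estimated fold between hosts of the pair, in either genotype. In DKO-labelled cells the ratios of the 2 hosts overlapped, with 0.883 in DKO-labelled/WT replicate 2. A difference in fold between Cd5 and Cd6 was not tested.

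The UBASH3 proteins, known as STS-2 and STS-1, suppress signalling downstream of the receptor, and only UBASH3B is a strong phosphatase, acting on ZAP-70. Their transcripts differed in level and in pattern. Ubash3a (Entrez 328795, chr17:31207873-31246892, plus strand) was 34.4 and 32.6 RPKM in OT-II/WT and 31.3, 31.3 and 29.6 RPKM in DKO-labelled/WT. Ubash3a was 39.4 and 36.9 RPKM in OT-II/RIP and 27.7 and 30.8 RPKM in DKO-labelled/RIP. OT-II libraries lay above DKO-labelled ones in either host, but the spread was small and so was the difference. It was -0.38 between genotypes in RIPmOVA hosts (SE 0.09, interval -0.59 to -0.17, adjusted p = 0.0718 by limma) and 0.18 between hosts in OT-II libraries (adjusted p = 0.426).

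Ubash3b (Entrez 72828, chr9:41011098-41161697, minus strand) was 4.61 and 6.09 RPKM in OT-II/WT and 4.82, 5.71 and 4.61 RPKM in DKO-labelled/WT. It was 5.38 and 6.13 RPKM in OT-II/RIP and 11.0 and 7.77 RPKM in DKO-labelled/RIP. Both DKO-labelled/RIP libraries were above all 7 others, which overlapped among themselves. Between hosts, Ubash3b was higher by 0.82 in DKO-labelled libraries (SE 0.17, interval 0.43 to 1.21, 1.76-fold, adjusted p = 0.0385 by limma) and differed by 0.11 in OT-II libraries (interval -0.32 to 0.54, adjusted p = 0.84). The 2 DKO-labelled/RIP libraries differed among themselves. Without replicate 2 the host difference was 1.06 with an adjusted p of 0.0232, which is past both limits, and without replicate 1 it was 0.58 with an adjusted p of 0.313. Without DKO-labelled/WT replicate 1 or 3 the adjusted p was 0.125 or 0.145, and without OT-II/RIP replicate 1 or 2 0.0653 or 0.0675. The background covariate left the difference at 0.89 with an adjusted p of 0.18, and a block on replicate number left it at 0.76 with an adjusted p of 0.176. Between genotypes in RIPmOVA hosts Ubash3b differed by 0.64 (SE 0.19, adjusted p = 0.111), and the interaction was 0.71 (interval 0.13 to 1.3, adjusted p = 0.504). The ratio of Ubash3a to Ubash3b was 5.34 to 7.45 in the 7 other libraries, and 2.51 and 3.97 in DKO-labelled/RIP libraries.

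Ptpn6 encodes SHP-1, a phosphatase recruited by inhibitory receptors, and was the most even of the 9 genes. Its RPKM was 121 to 145 over all 9 libraries, with the highest 1.2 times the lowest. Ptpn6 (Entrez 15170, chr6:124720707-124738714, minus strand) differed between hosts by 0.07 (interval -0.16 to 0.3) for OT-II, and by 0.0 (interval -0.21 to 0.21) under the DKO label. Between genotypes it differed by -0.15 (interval -0.38 to 0.08) in RIPmOVA hosts and by -0.08 (interval -0.29 to 0.13) in WT hosts, so that the intervals leave out a change of 1.5-fold in each of these 4 comparisons. It shares 195 exonic bases with the antisense gene Gm20531, whose reads cannot be told apart from its own without strand.

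Ptpn22 and Csk are partners. PTPN22, also called PEP, binds CSK and removes the activating phosphate of LCK, and CSK adds the inhibitory phosphate of the same kinase. Their transcripts differed in opposite directions between hosts in DKO-labelled cells. Ptpn22 (Entrez 19260, chr3:103859795-103912247, plus strand) was 45.4 and 38.6 RPKM in OT-II/WT and 40.5, 37.7 and 39.5 RPKM in DKO-labelled/WT. Ptpn22 was 41.2 and 46.2 RPKM in OT-II/RIP and 64.5 and 53.1 RPKM in DKO-labelled/RIP. The latter 2 were above the 7 other libraries, which lay between 37.7 and 46.2 RPKM.

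Csk (Entrez 12988, chr9:57626646-57653631, minus strand) was 33.5 and 46.4 RPKM in OT-II/WT and 39.2, 41.2 and 39.3 RPKM in DKO-labelled/WT. Csk was 35.2 and 34.4 RPKM in OT-II/RIP and 23.8 and 26.3 RPKM in DKO-labelled/RIP. Here the DKO-labelled/RIP libraries were the lowest 2 of the 9. The 2 OT-II/WT libraries spread wider for Csk than those of any other group, and both OT-II/RIP libraries lay inside their range.

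Between hosts in DKO-labelled libraries, Ptpn22 was higher by 0.57 on the log2 scale (SE 0.11, interval 0.32 to 0.82, 1.48-fold, adjusted p = 0.0269 by limma). Csk was lower by -0.66 (SE 0.13, interval -0.95 to -0.38, 1.58-fold, adjusted p = 0.0249). In OT-II libraries the same comparison gave 0.06 for Ptpn22 (interval -0.22 to 0.33) and -0.18 for Csk (interval -0.49 to 0.14), with adjusted p of 0.863 and 0.627. Between genotypes in RIPmOVA hosts the differences were 0.42 for Ptpn22 (SE 0.12, adjusted p = 0.107) and -0.47 for Csk (SE 0.14, adjusted p = 0.111), and in WT hosts -0.09 and 0.02. The interaction was 0.51 for Ptpn22 (interval 0.14 to 0.88, adjusted p = 0.462) and -0.49 for Csk (interval -0.91 to -0.06, adjusted p = 0.51), so the difference between the genotypes in their host response did not pass the test over all genes.

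These 2 calls at the adjusted p depended on single libraries. For Ptpn22 the adjusted p was 0.0762, 0.0573 and 0.0935 without DKO-labelled/WT replicate 1, 2 or 3 and 0.237 without DKO-labelled/RIP replicate 1. For Csk it met the limit without either OT-II/WT library (0.00373 and 0.0038) and missed it without any of the 7 others, at 0.0512 to 0.201. With 1 library left out, the log2 fold changes stayed between 0.43 and 0.71 for Ptpn22 and between -0.74 and -0.59 for Csk. Under median-of-ratios rescaling they were 0.4 (adjusted p = 0.23 by limma) and -0.84 (adjusted p = 0.0352). With the background covariate they were 0.59 (adjusted p = 0.173) and -0.58 (adjusted p = 0.216), and with a block on replicate number 0.58 (adjusted p = 0.0908) and -0.67 (adjusted p = 0.0701).

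The ratio of Ptpn22 to Csk was 2.71 and 2.02 in DKO-labelled/RIP libraries. It was 0.833 to 1.36 in the 7 other libraries. Over the 9 libraries, log2(RPKM + 0.5) of Ptpn22 and Csk correlated with r of -0.96, Ubash3b correlated with Ptpn22 at 0.84 and with Csk at -0.74, and these values describe libraries of 4 groups that also differ in depth and background.

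**Figure D3:**
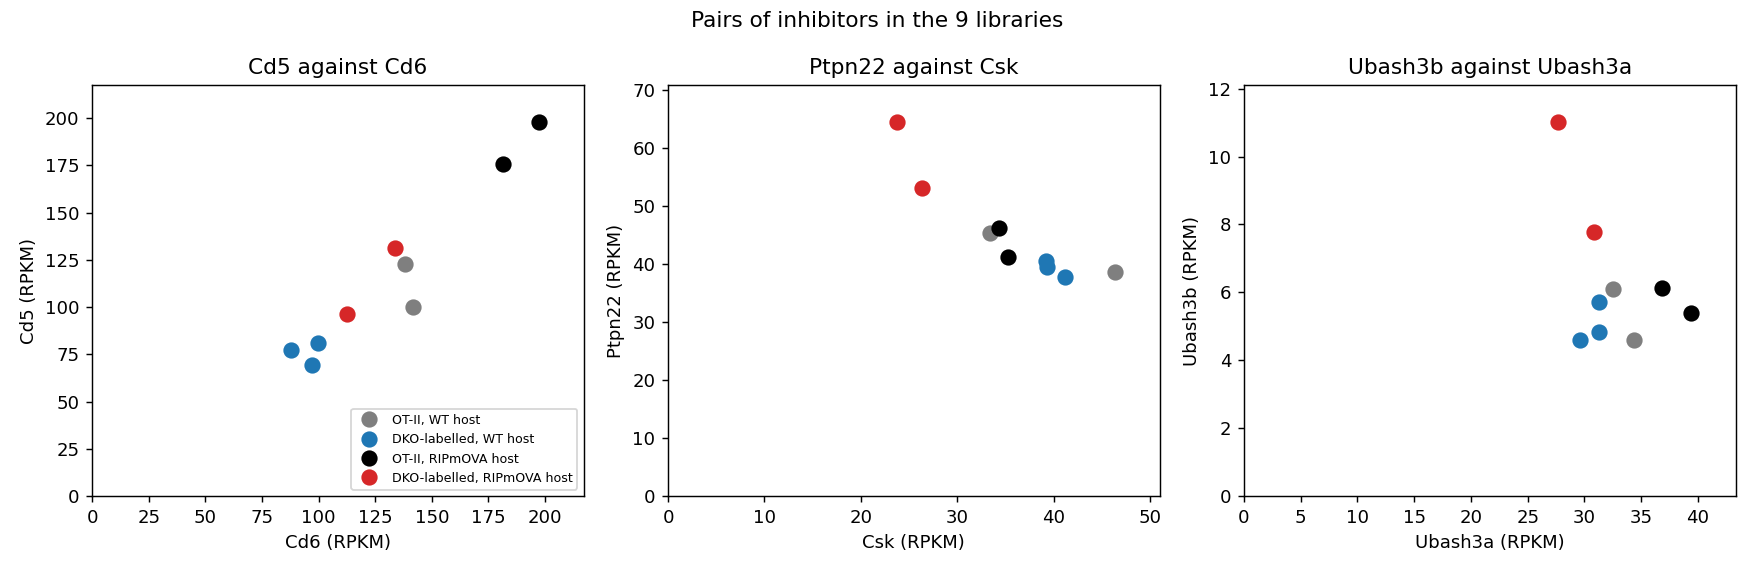
RPKM of Cd5 against Cd6, Ptpn22 against Csk and Ubash3b against Ubash3a, with a point for each of the 9 libraries coloured by group. Ptpn22 and Csk run in opposite directions, and the 2 DKO-labelled/RIP libraries lie at the end with 64.5 and 53.1 RPKM of Ptpn22 and 23.8 and 26.3 RPKM of Csk.

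Promoter sequences are shown for the 3 genes whose DKO-labelled/RIP libraries lay outside all other libraries. The share of all genes that did so was not counted, so this choice is no result about the inhibitors. Between hosts in DKO-labelled cells alone, 22.7% of all genes lay wholly higher in RIPmOVA hosts and 17.3% wholly lower. They are taken from RefSeq (GRCm38.p6) and cover 250 bases before to 50 bases after a transcript start, 5′ to 3′ on the strand of the gene. The table held entries for 6 of the 9 inhibitors, 9 windows in all, and none for Cd6, Sh2d2a and Pag1. Starts are numbered in the order of that table. Each of the 3 genes had 2 windows, of which 1 is shown. It is the first for Csk and Ubash3b and the second for Ptpn22, the only window of the 9 with a match to any letters searched. Capitals mark matches to TGTGGT, letters of the site bound by RUNX factors, on either strand (ACCACA on the strand shown).
Ptpn22, second start, chr3:103860027-103860326: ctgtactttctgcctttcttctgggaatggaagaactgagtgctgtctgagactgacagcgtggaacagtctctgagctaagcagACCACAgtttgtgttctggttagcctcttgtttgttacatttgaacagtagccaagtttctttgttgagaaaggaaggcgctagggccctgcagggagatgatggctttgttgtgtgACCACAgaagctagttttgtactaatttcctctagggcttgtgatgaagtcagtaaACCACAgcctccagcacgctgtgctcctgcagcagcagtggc
Csk, first start, chr9:57653582-57653881: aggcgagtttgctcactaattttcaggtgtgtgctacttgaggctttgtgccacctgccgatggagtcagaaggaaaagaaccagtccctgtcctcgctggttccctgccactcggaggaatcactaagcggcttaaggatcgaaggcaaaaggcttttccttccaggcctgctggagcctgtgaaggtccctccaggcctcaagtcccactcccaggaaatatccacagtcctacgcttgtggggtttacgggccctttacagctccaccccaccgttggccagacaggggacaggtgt
Ubash3b, first start, chr9:41158013-41158312: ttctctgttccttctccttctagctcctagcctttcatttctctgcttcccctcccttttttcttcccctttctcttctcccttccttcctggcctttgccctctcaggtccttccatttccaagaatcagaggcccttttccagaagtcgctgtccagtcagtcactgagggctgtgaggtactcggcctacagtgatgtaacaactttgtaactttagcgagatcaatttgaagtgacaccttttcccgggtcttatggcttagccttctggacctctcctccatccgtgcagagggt

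Of the 9 windows, that of the second Ptpn22 start held 3 matches to TGTGGT and the other 8 held 0, while 16.8% of 32851 promoters in the table held at least 1. The letters AAAGGTCA, to which NR4A proteins bind, matched in 0 of the 9 windows, against 1.51% of all promoters. GCGNGGGCG for EGR factors, TGANTCA for AP-1 and CCGGAA for ETS factors also matched in 0 of the 9, against 5.55%, 7.81% and 14.9% of all promoters. The searches covered both strands. At those shares few of 9 windows would match, and at 1.51% most likely none, so 0 matches carry little information. The windows cover 6 of the genes and leave out Cd6. The letters for ETS and RUNX factors were added after the other 3 had given no match, and a match in a window of 300 bases is a description of the sequence and not of binding.

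The adaptors differed less. Sh2d2a encodes TSAd, an adaptor that binds LCK, and Sh2d2a (Entrez 27371, chr3:87846755-87855722, plus strand) was 47.1 and 55.4 RPKM in OT-II/WT and 51.5, 51.6 and 56.4 RPKM in DKO-labelled/WT. It was 65.1 and 64.9 RPKM in OT-II/RIP and 55.9 and 49.6 RPKM in DKO-labelled/RIP. OT-II/RIP libraries were the highest 2 of the 9, and the other 7 overlapped. The difference between hosts was 0.34 in OT-II libraries (SE 0.11, interval 0.1 to 0.58, adjusted p = 0.171) and -0.01 in DKO-labelled libraries (interval -0.23 to 0.21), with an interaction of -0.36 (interval -0.68 to -0.03, adjusted p = 0.522). Pag1 (Entrez 94212, chr3:9687479-9833679, minus strand), the membrane anchor of CSK, was 3.44 to 7.18 RPKM, with groups that overlapped in all 4 comparisons and log2 fold changes from -0.13 to 0.32. Its intervals were the widest of the 9 genes, for example -0.51 to 0.57 between hosts in DKO-labelled libraries, so changes of up to that size were not detectable.

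Over the 9 inhibitors, the libraries of OT-II/RIP cells lay wholly above those from WT hosts for 4 genes (Cd5, Cd6, Ubash3a and Sh2d2a) and wholly below for 0, where 19.4% and 22.1% of all genes did so. In DKO-labelled cells they lay above for 4 (Cd5, Cd6, Ubash3b and Ptpn22, 22.7% of all genes) and below for Csk (17.3%). Between genotypes in RIPmOVA hosts 6 of the 9 lay lower under the DKO label (Cd5, Cd6, Ubash3a, Ptpn6, Sh2d2a and Csk, 24.4% of all genes) and 2 higher (Ubash3b and Ptpn22, 34.6% of all genes). In WT hosts 3 lay lower (Cd5, Cd6 and Ubash3a, 10.3% of all genes) and 0 higher (10.5%). The median log2 fold change of the 9 was -0.3 between genotypes in RIPmOVA hosts, against 0.04 over all genes tested. In the other comparisons it was 0.11 between hosts in OT-II libraries (-0.02 over all genes), 0.03 between hosts in DKO-labelled libraries (0.03), -0.08 between genotypes in WT hosts (0.01) and -0.07 for the interaction (0.03). The comparisons between hosts and between genotypes share libraries, so they are not independent of each other. Most of the 9 inhibitors were among the higher genes kept, and the shares and medians over all genes were not matched for level. Between genotypes in RIPmOVA hosts the median over all genes was 0.149 with no filter and -0.021 with a filter at 5 RPKM.

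Other known inhibitors of the same pathway were examined as a list of 23 genes, of which 22 passed the filter and Rnf128 did not. Of all genes, 1.89% passed the adjusted p between hosts in OT-II libraries and 3.35% in DKO-labelled libraries. Between hosts in OT-II libraries, Cblb passed the adjusted p upward (0.95, SE 0.19, adjusted p = 0.0445 by limma) and Sla2 downward (-0.49, SE 0.09, adjusted p = 0.0336). CBL-B is a ubiquitin ligase needed for T cell anergy, and SLAP-2, the product of Sla2, is an adaptor that works with CBL proteins. Mean Cblb was 6.17 RPKM in WT hosts and 12.3 RPKM in RIPmOVA hosts for OT-II, and 5.49 and 12.9 RPKM for DKO-labelled cells. In DKO-labelled libraries Cblb was called (1.13, SE 0.18, adjusted p = 0.0102), the only gene of the list past both limits in any comparison, and Sla (0.51), Lax1 (0.91) and Sh2b3 (0.82) also passed the adjusted p upward and Sla2 (-0.43) and Sh3bp2 (-0.59) downward. Cblb was thus higher in RIPmOVA hosts in either genotype at the adjusted p, while Lax1, a transmembrane adaptor, was 19.1 and 21.2 RPKM in OT-II and 15.1 and 28.5 RPKM in DKO-labelled cells from WT and RIPmOVA hosts. The interaction of Lax1, the highest of the list, was 0.76 (SE 0.26, adjusted p = 0.468).

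Between genotypes in RIPmOVA hosts, Sh2b3, the adaptor LNK, passed upward (0.78, SE 0.16, adjusted p = 0.0465) and Dok2, a docking protein, downward (-0.59, SE 0.12, adjusted p = 0.0365, means of 127 and 83.8 RPKM). The lowest value was that of Dgkz, a diacylglycerol kinase, at -0.62 with an adjusted p of 0.0976. In WT hosts 0 of 22 passed, with values from -0.33 (Rasa1, a Ras GTPase-activating protein) to 0.35 (Ptpn11, the phosphatase SHP-2), and 0 of 22 passed for the interaction, where Dgkz was the lowest at -0.55. Of all genes, 2.21% passed the adjusted p between genotypes in RIPmOVA hosts, 0.0692% in WT hosts and 0.0173% for the interaction. The median of the list was 0.1 between hosts in OT-II libraries, -0.02 in DKO-labelled libraries, -0.07 between genotypes in RIPmOVA hosts, -0.09 in WT hosts and 0.04 for the interaction.

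The signalling components that these inhibitors restrain, CD3 and zeta chains, kinases and adaptors, were a list of 17 genes, of which 16 passed the filter and Syk did not. In each of the 5 comparisons 0 of the 16 passed the adjusted p, with median log2 fold changes of -0.1, -0.14, -0.11, -0.08 and -0.06 in the same order. Of all genes only 1.89%, 3.35%, 2.21%, 0.0692% and 0.0173% passed in that order, so few of 16 genes would pass at those shares. The range was -0.28 (Lck) to 0.6 (Plcg1) between hosts in OT-II libraries and -0.32 (Cd247, the zeta chain) to 0.26 (Ptprc) in DKO-labelled libraries. Between genotypes it was -0.53 (Plcg1) to 0.07 (Lck) in RIPmOVA hosts and -0.28 (Ptprc) to 0.09 (Ptk2b) in WT hosts, and for the interaction -0.59 (Plcg1) to 0.18 (Lck). Plcg1, the phospholipase downstream of LAT, was 34.8 and 52.2 RPKM in OT-II and 35.7 and 36.0 RPKM in DKO-labelled cells from WT and RIPmOVA hosts, with an adjusted p of 0.107 between hosts in OT-II libraries. Lck, the kinase on which CSK and PTPN22 act, was 355 to 432 RPKM in the 4 group means. Ptprc encodes CD45, by whose alleles the donors were told apart in the sort.

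**Figure D4:**
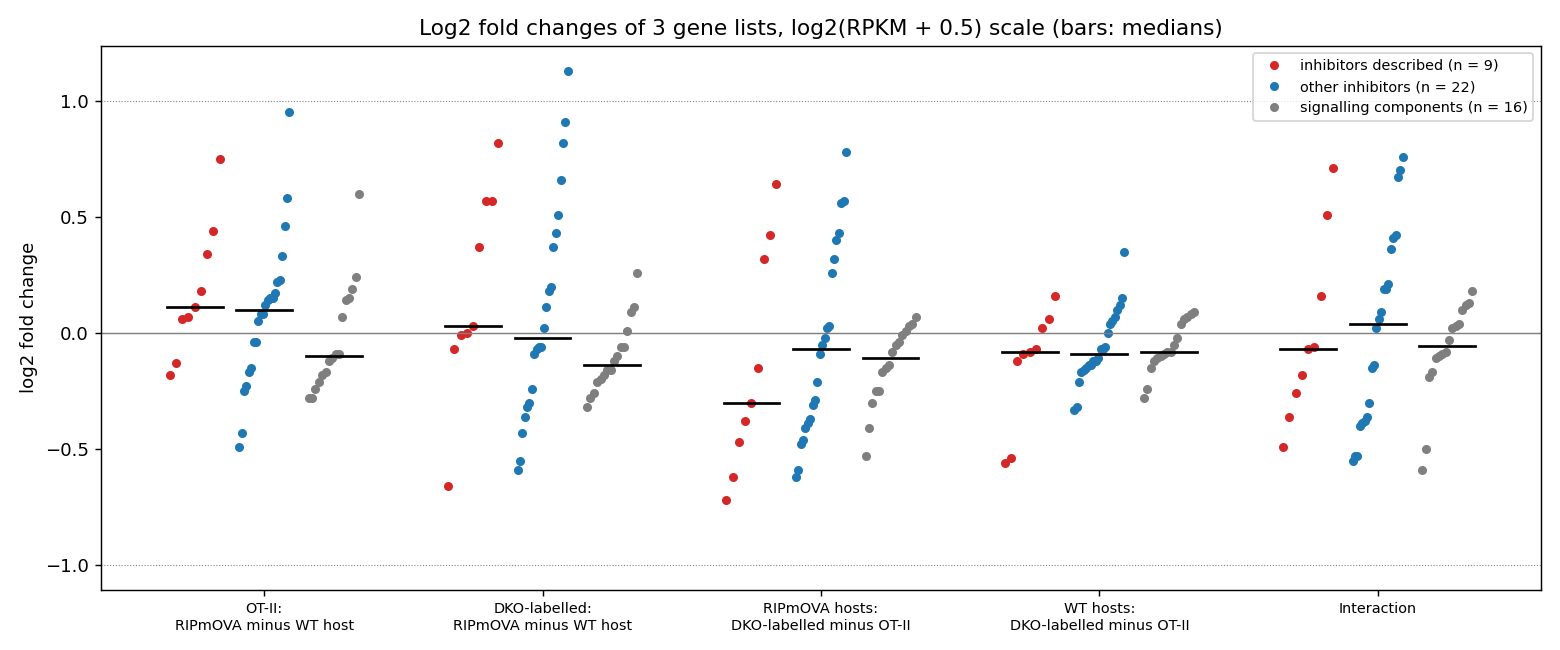
Log2 fold changes on the log2(RPKM + 0.5) scale in the 5 comparisons for the 9 inhibitors, 22 other inhibitors and 16 signalling components, with a point for each gene, black bars at the medians and dotted lines at -1 and 1. The only point past 1 is Cblb between hosts in DKO-labelled libraries, at 1.13.

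The genes whose log2(RPKM + 0.5) over the 9 libraries was most like that of the inhibitors past the adjusted p limit were Plin2, Gsto1 and Sox4 for Cd6 (r of 0.978, 0.971 and 0.97), with Sox4, a transcription factor of thymocytes, at 37.2 to 107 RPKM. For Ubash3b they were Adam9, Ncf1 and Slx4ip (0.957, 0.953 and 0.949), for Ptpn22 Tnfsf8, Aig1 and Ly6e (0.966, 0.959 and 0.959), and for Csk Tnip2, AI837181 and Ccdc9 (0.972, 0.967 and 0.966). Tnfsf8, the CD30 ligand, ran from 5.45 to 40.8 RPKM. These were the highest of 11569 correlations each, over 9 libraries in 4 groups, and describe likeness of pattern only.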

How the data were processed

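The deposited values were RPKM, which the authors made from reads on the exons of each Entrez gene. Per the study's methods, SMART-seq v4 and Nextera XT libraries were read with paired ends, aligned with STAR to mm10 with a GENCODE transcriptome, and freed of duplicates with Picard. The use of strand in counting is not given in the sources used here. The study's own test used counts, which were not used here.

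The filter kept genes that reached 1 RPKM in 2 or more of the 9 libraries. In R 4.3.3, limma 3.58.1 fitted a group-means model of log2(RPKM + 0.5) to the 9 libraries (eBayes with intensity trend, two-sided, Benjamini-Hochberg over 11569 genes). Fold changes on this scale understate those of low genes, and 95% intervals are unadjusted. Python 3.11.15 was used for tables and plots, and the model was tested on simulated data. Depth came from the steps of low RPKM values: 100% were whole reads within 0.1, at 15520000 to 25030000 reads. Reads carry no molecular identifiers, so read numbers cover counting error only. In the table, 0 columns belonged to samples not listed. Coordinates are those of GENCODE on GRCm38.

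The members, lists and tests were chosen with earlier results of these data known. Named were all 9 members, in each list and comparison the genes past a limit and the highest and lowest, and for members past the adjusted p the 3 most correlated genes. Protein sequences were not used here. One marker is not reported here. Alternatives were other pseudocounts, filters and scalings, a fit to the groups compared, no trend, the adjusted p alone, replicate blocks, background as a covariate, voom, and leaving out libraries. OT-II and DKO-labelled libraries with the same host number came from 1 mouse. Deviations from group means of such pairs correlated at 0.01 and -0.24 in WT hosts and at -0.08 and -0.08 in RIPmOVA hosts. The values of RIPmOVA hosts are equal by construction, with 2 libraries a group. Host mouse was a block (limma duplicateCorrelation, 0.104) in an alternative. Libraries of 1 genotype that share a number across hosts came from different mice and correlated at 0.228 and 0.228 (OT-II, equal by construction with 2 libraries a group) and 0.102 and 0.231 (DKO-labelled). A block on the number was another alternative, and its values stand beside the results it changes.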

Additional observations from a re-analysis of the deposited data

How the results depend on the processing

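The count of 0 inhibitors called stood in all 5 comparisons under all alternatives but 2. On the adjusted p alone 3 were called between hosts in DKO-labelled libraries and 1 between genotypes in RIPmOVA hosts. Leaving out 1 library gave 0 to 1 between hosts in DKO-labelled libraries, the 1 being Ubash3b without DKO-labelled/RIP replicate 2. Each leave-out that took a group to 1 library relied on the spread of the other groups. With host mouse as a replicate block the count stayed 0 in each comparison, and the adjusted p of Cd5 crossed 0.05 as given above. A block on replicate number, which is shared by different mice of the 2 hosts, also left 0 inhibitors called. It took the adjusted p of Ubash3b (0.176), Ptpn22 (0.0908) and Csk (0.0701) between hosts in DKO-labelled libraries above 0.05 and left that of Cd6 at 0.0292, and the sign changed there for Ptpn6 (0.063), Sh2d2a (0.031) and Pag1 (-0.049), all between hosts in DKO-labelled libraries.

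The adjusted p stayed at 0.05 or less in 9 of 13 other settings for Cd6 between genotypes in RIPmOVA hosts, and in 7 for Ubash3b, 8 for Ptpn22 and 9 for Csk between hosts in DKO-labelled libraries. For Cd5, which missed the limit as reported, it was 0.05 or less in 7 of 13 between genotypes in RIPmOVA hosts and in 3 of 13 between hosts in OT-II libraries. Having no filter, having no trend and the background covariate each took Cd6, Ubash3b, Ptpn22 and Csk above 0.05.

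Of 45 log2 fold changes of inhibitors, 20 changed sign under some alternative, each of them 0.18 or less in size, and the cause was not tested. Between hosts in DKO-labelled libraries, Ptpn6 (0.011), Sh2d2a (0.038) and Pag1 (-0.0035) did so under quantile normalization and Pag1 (-0.13) under median-of-ratios rescaling, which also turned the interaction of Pag1 (-0.051). The background covariate turned Ptpn6 between hosts in OT-II libraries (-0.0004), between genotypes in RIPmOVA hosts (0.0078) and for the interaction (0.1034), the interaction of Cd6 (0.0016), and Ptpn6 (0.103), Sh2d2a (0.0929) and Pag1 (-0.064) between hosts in DKO-labelled libraries. Without both WT-host libraries of high background, an alternative chosen after seeing the data like the voom fit, Ubash3b (-0.078) and Ptpn6 (-0.037) turned between hosts in OT-II libraries, and Ptpn22 (0.051), Sh2d2a (-0.0401), Csk (-0.24) and Pag1 (-0.14) between genotypes in WT hosts.

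Where leaving out 1 library turned a sign, the ranges between hosts in OT-II libraries were -0.078 to 0.29 for Ubash3b, -0.037 to 0.17 for Ptpn6, -0.057 to 0.17 for Ptpn22, -0.41 to 0.056 for Csk and -0.38 to 0.11 for Pag1. Between hosts in DKO-labelled libraries they were -0.15 to 0.0041 for Ubash3a, -0.041 to 0.063 for Ptpn6, -0.097 to 0.074 for Sh2d2a and -0.20 to 0.26 for Pag1. Between genotypes in WT hosts they were -0.25 to 0.11 for Ubash3b, -0.18 to 0.028 for Ptpn6, -0.21 to 0.023 for Ptpn22, -0.061 to 0.17 for Sh2d2a, -0.21 to 0.25 for Csk and -0.058 to 0.29 for Pag1. For the interaction they were -0.40 to 0.043 for Cd5, -0.19 to 0.061 for Cd6, -0.18 to 0.034 for Ptpn6 and -0.083 to 0.41 for Pag1.

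Over all genes, counts called ran over the alternatives from 31 to 296 between hosts in OT-II libraries (142 as reported), 87 to 553 in DKO-labelled libraries (194), 20 to 555 between genotypes in RIPmOVA hosts (124), 2 to 102 in WT hosts (7) and 0 to 165 for the interaction (2). Median-of-ratios rescaling moved the median of all genes from 0.045 to -0.17 between genotypes in RIPmOVA hosts, and the share of calls that were higher from 47.6% to 30.4%. Cd5 was -0.96 and Cd6 -0.86 on that scale, before the shift is taken off. Between hosts in DKO-labelled libraries the same rescaling moved the median of all genes from 0.027 to -0.134. Before that shift is taken off, Ubash3b was 0.65 there (adjusted p = 0.109 by limma), Ptpn22 0.4 and Csk -0.84. With 2 or 3 libraries in a group, differences near the width of the intervals given were not detectable, above all for Ubash3b and Pag1, which had the fewest reads.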
